A study of Mus musculus with 9 samples.

Results

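The genes around Lyl1 on mouse chromosome 8 were examined in bone marrow progenitors that lack Lyl1. The 9 genes described are Nacc1, Trmt1, Nfix, Gadd45gip1, Farsa, Rnaseh2a, Get3 (Asna1 in older annotation), Tnpo2 and Dhps. They were chosen from the genes close to Lyl1 with their intensities by genotype on these same arrays already known, so their differences between genotypes are given as a description and without a p-value. All 9 were on the array, with 24 probe sets that the platform annotation assigns to a single gene, of 34945 such probe sets for 18193 genes. Of the 24 probe sets, 22 passed the filter on low values (above the array's median on at least 3 arrays), and 20387 did so in all. Nacc1 and Trmt1 lie before Lyl1 and the other 7 after it, Trmt1 and Nfix being next to it.

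The study measured RNA of Lyl1-/- mice, E2A-/- mice and wild-type (WT) mice with Affymetrix expression arrays, 3 arrays per genotype. Each sample was bone marrow sorted as lineage marker negative and positive for CD117, SCA-1 and CD135, a gate that holds early multipotent progenitors. The labels name no treatment. For the mice's age and strain, and for how each allele was made and what it removes, the sources used here give nothing. E2A proteins are encoded by Tcf3, on chromosome 10. WT 1 and WT 3 were closer to each other than any other pair of arrays and were averaged into 1 sample, so every difference rests on 3 Lyl1-/-, 3 E2A-/- and 2 WT samples.

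Lyl1 encodes a basic helix-loop-helix protein that pairs with E2A proteins and binds E-boxes, and it is expressed in blood stem and progenitor cells. A gene disrupted in embryonic stem cells stays linked to the DNA that surrounds it, and an inserted cassette can also affect nearby genes, so the genes next to a targeted locus are commonly examined. The neighbours themselves are housekeeping genes for the most part and do not belong to 1 pathway. They act in tRNA modification and charging, DNA repair, protein targeting, nuclear import and mitochondrial translation, while Nfix and Nacc1 act in transcription.

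The promoters of Lyl1 and of 4 genes after it are shown: Prdx2 and the listed genes Rnaseh2a, Get3 and Tnpo2, which were higher in Lyl1-/- than in WT. Those of Nfix, Farsa and Dhps are not shown. None was found for Nacc1, Trmt1 or Gadd45gip1, the last having the largest difference among the listed genes. The promoters come from RefSeq (GRCm38.p6) and run from 250 bases before to 50 bases after the annotated start, 5′ to 3′ on the gene's strand. Capitals mark each CANNTG, the E-box form, which reads as CANNTG on both strands. The stretches are chr8:84701207-84701506 on the plus strand for Lyl1, chr8:84966027-84966326 on the minus strand for Rnaseh2a, chr8:84969372-84969671 on the plus strand for Prdx2, chr8:85025238-85025537 on the minus strand for Get3 and chr8:85036643-85036942 on the plus strand for Tnpo2 (the first of 2 annotated starts).
Lyl1: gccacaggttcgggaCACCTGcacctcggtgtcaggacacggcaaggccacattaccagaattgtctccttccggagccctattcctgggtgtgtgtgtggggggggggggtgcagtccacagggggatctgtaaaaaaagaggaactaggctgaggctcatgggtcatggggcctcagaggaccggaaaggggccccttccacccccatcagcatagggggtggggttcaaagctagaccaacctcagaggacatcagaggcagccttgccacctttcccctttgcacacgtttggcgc
Rnaseh2a: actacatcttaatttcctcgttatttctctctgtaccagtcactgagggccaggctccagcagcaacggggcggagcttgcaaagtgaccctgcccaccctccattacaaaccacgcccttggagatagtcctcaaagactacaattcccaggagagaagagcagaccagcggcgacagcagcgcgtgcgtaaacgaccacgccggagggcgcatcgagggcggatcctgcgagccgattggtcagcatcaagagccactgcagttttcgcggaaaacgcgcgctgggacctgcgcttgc
Prdx2: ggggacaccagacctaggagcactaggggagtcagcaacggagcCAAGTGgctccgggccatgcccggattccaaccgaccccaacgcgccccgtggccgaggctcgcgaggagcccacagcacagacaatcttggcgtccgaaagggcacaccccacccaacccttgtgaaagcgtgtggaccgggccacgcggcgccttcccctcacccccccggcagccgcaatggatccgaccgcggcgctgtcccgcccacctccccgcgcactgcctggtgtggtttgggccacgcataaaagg
Get3: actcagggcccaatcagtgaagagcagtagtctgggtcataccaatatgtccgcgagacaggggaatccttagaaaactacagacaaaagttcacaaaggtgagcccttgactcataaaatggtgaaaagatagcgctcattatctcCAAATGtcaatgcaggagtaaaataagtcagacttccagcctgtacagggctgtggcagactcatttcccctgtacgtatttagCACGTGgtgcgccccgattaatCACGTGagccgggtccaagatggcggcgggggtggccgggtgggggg
Tnpo2: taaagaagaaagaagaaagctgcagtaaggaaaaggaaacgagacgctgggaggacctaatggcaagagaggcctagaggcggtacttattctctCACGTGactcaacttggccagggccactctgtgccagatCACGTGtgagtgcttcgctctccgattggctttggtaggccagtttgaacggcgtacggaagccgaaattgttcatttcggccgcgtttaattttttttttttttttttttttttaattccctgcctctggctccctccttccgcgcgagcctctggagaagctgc
The Lyl1 promoter holds 1 CANNTG, that of Prdx2 1, that of Get3 3, the Tnpo2 stretch shown 2 and that of Rnaseh2a 0. The stretch at the other Tnpo2 start, not shown, holds 0. Of all promoters in the table, 72.3% hold at least 1, and of the 10 promoters found for 6 of the 9 neighbours, 60% do. Rnaseh2a and Prdx2 are adjacent among the measured genes and are transcribed away from each other.

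Lyl1 itself was near the level of a dim probe set on every Lyl1-/- array. Its probe set 1419120_at read 89.6, 79.2 and 92.0 on the Lyl1-/- arrays, against 1222, 825 and 900.3 on the E2A-/- arrays and 1429, 1352 and 1443 on the WT arrays. The arrays' medians lay between 77.9 and 79.3. The log2 difference of Lyl1-/- against WT was -4.01 (SE 0.16, limma adjusted p = 2.65e-05) and that against E2A-/- was -3.48 (limma adjusted p = 8.99e-05). E2A-/- against WT gave -0.53 (limma adjusted p = 0.418). The sources used here do not say whether this probe set lies in the removed part of the gene.

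Before Lyl1 lie Nacc1 and Trmt1. Nacc1 encodes a BTB-domain transcriptional regulator. Its brightest probe set, 1420969_at, read 127, 159 and 121 on the Lyl1-/- arrays, against 120, 136 and 130 on the E2A-/- arrays and 126, 112 and 136 on the WT arrays. The 3 genotypes overlapped, with a log2 difference of 0.15 (SE 0.14) for Lyl1-/- against WT and 0.09 for E2A-/- against WT. Its other probe sets lay close to the array median and differed by -0.01 and 0.01 in Lyl1-/- against WT.

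Trmt1, directly before Lyl1, encodes the enzyme that places dimethylguanosine in tRNAs. Its brightest probe set, 1436494_x_at, read 758, 633 and 777 on the Lyl1-/- arrays, against 835, 782 and 736 on the E2A-/- arrays and 870.0, 882 and 901 on the WT arrays. All 3 Lyl1-/- arrays and all 3 E2A-/- arrays were below every WT array, and the 2 knockouts overlapped. The log2 differences from WT were -0.30 in Lyl1-/- and -0.17 in E2A-/- (SE 0.12 each). The other Trmt1 probe sets did not follow the same order. For 1451249_at, Lyl1-/- arrays read 175, 188 and 182 against 242, 166 and 140 on E2A-/- arrays and 250, 179 and 242 on WT arrays, so that WT 2 lay among the knockouts. The third, 1437314_a_at, differed by -0.06 in Lyl1-/- and -0.09 in E2A-/- against WT. Without WT 2 the Lyl1-/- differences of the 3 Trmt1 probe sets were -0.30 (1436494_x_at), -0.44 (1451249_at) and -0.22 (1437314_a_at). Over all alternatives run, 1436494_x_at stayed between -0.35 and -0.20. The other probe sets changed sign in some, with highest values of 0.02 (1451249_at) and 0.09 (1437314_a_at).

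Nfix lies directly after Lyl1 and encodes a nuclear factor I transcription factor that acts in mouse blood stem and progenitor cells. In RefSeq it overlaps Lyl1 on the opposite strand and also overlaps the long non-coding RNA gene G430095P16Rik, so signal at a probe set was assigned to Nfix by the platform annotation alone. It had 5 probe sets, and they went different ways. The brightest, 1436363_a_at, read 972, 748 and 1031 on the Lyl1-/- arrays, against 731, 738 and 751 on the E2A-/- arrays and 759, 688 and 737 on the WT arrays. Lyl1-/- 1 and 3 stood above all other arrays and Lyl1-/- 2 did not, with a log2 difference of 0.34 (SE 0.14) from WT.

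A second Nfix probe set, 1436364_x_at, behaved alike, with Lyl1-/- at 728, 555 and 747 against 503, 568 and 569 in E2A-/- and 517, 454 and 508 in WT. All Lyl1-/- arrays were above all WT arrays, by 0.48 (SE 0.15) in log2, while Lyl1-/- 2 was below E2A-/- 2 and 3. The probe set 1423493_a_at read 205, 182 and 185 in Lyl1-/-, against 179, 114 and 129 in E2A-/- and 160, 100.2 and 162 in WT. Lyl1-/- was above the 6 other arrays here, by 0.58 (SE 0.23) in log2 against WT, and by 0.24 when WT 2, the lowest array, was left out. The dim probe set 1459909_at went the other way: Lyl1-/- read 77.1, 88.6 and 96.2, against 105, 119 and 123 in E2A-/- and 105, 129 and 110 in WT. It was below the 6 other arrays, by -0.44 (SE 0.13) against WT and -0.41 (SE 0.12) against E2A-/-. The fifth, 1451443_at, was at the array median and differed by 0.00.

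**Figure D1:**
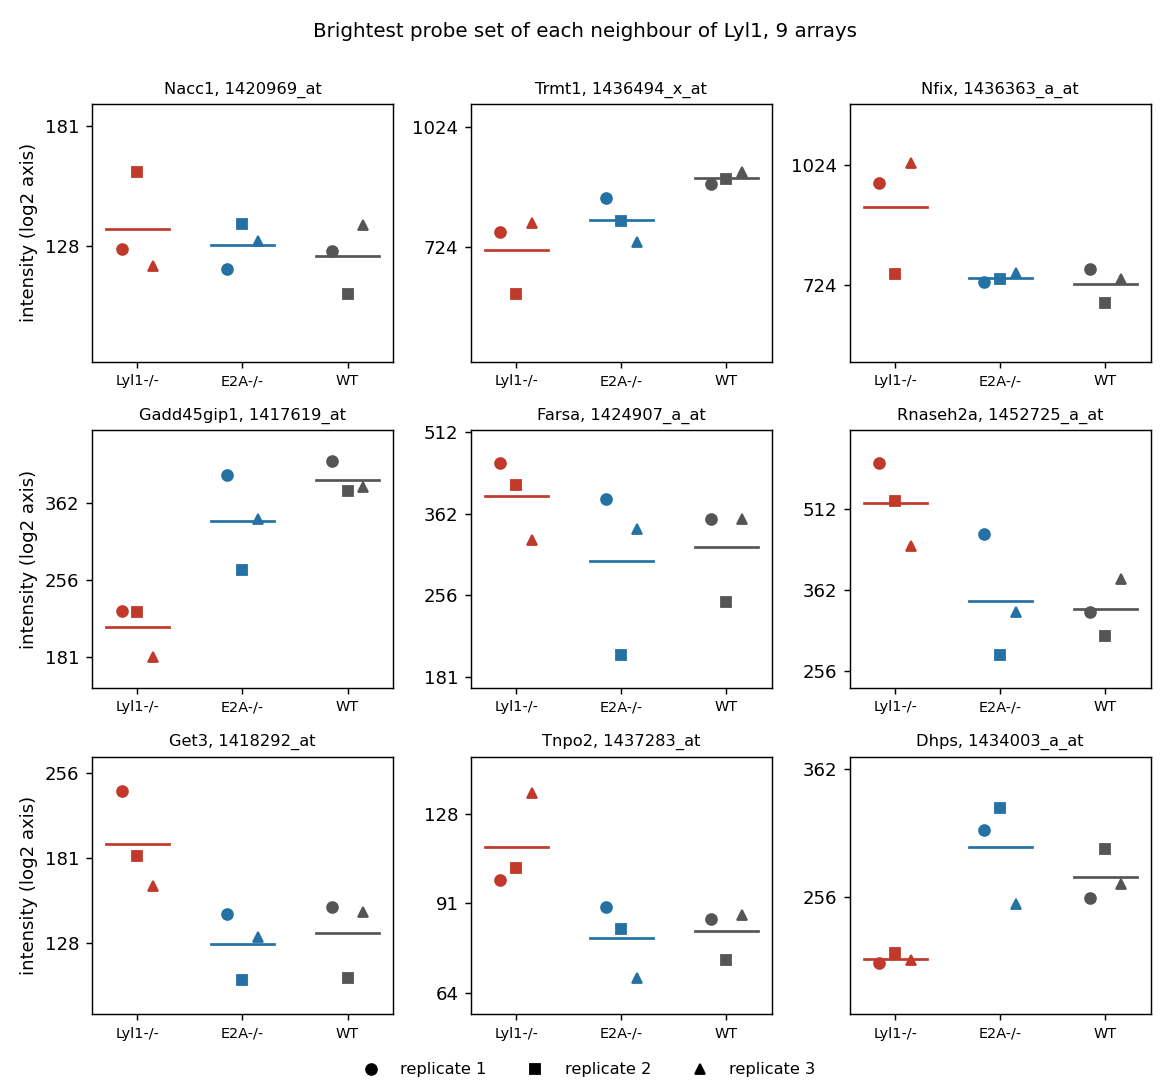
Intensity on a log2 axis of the brightest probe set of each of the 9 neighbours, in gene order along the chromosome, on the 3 Lyl1-/-, 3 E2A-/- and 3 WT arrays. Marker shapes give the replicate and lines the geometric mean of the 3 arrays. Gadd45gip1 and Dhps are lower on all 3 Lyl1-/- arrays than on the 6 others, and Get3 and Tnpo2 are higher.

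Gadd45gip1 showed the largest difference among the 22 probe sets in Lyl1-/- against WT. It encodes a protein of the large subunit of the mitochondrial ribosome that was also described as a binding partner of GADD45 proteins. Its probe set 1417619_at read 222, 222 and 181 on the Lyl1-/- arrays, against 410.3, 268 and 336 on the E2A-/- arrays and 437, 383 and 389 on the WT arrays. All 3 Lyl1-/- arrays were below the 6 others. The log2 difference was -0.94 (SE 0.18) against WT and -0.68 (SE 0.16) against E2A-/-, while E2A-/- against WT gave -0.25. With any single array left out it ran from -0.99 to -0.84 against WT. The second Gadd45gip1 probe set, 1448776_at, was near the array median and showed no fall, with 83.4, 84.2 and 84.4 in Lyl1-/-, against 80.1, 87.6 and 72.8 in E2A-/- and 80.9, 79.1 and 80.0 in WT.

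Farsa encodes the alpha subunit of cytosolic phenylalanyl-tRNA synthetase, which charges tRNA with phenylalanine. Its brightest probe set, 1424907_a_at, varied within each genotype: 449, 410 and 324 in Lyl1-/-, against 386, 199 and 339 in E2A-/- and 353, 248 and 354 in WT. The groups overlapped, and the log2 difference of 0.40 from WT had an SE of 0.29. A dimmer probe set, 1440063_at, read 125, 129 and 121 in Lyl1-/-, against 72.3, 112 and 81.6 in E2A-/- and 103, 106 and 104 in WT. Lyl1-/- was above the 6 other arrays there, by 0.26 (SE 0.17) against WT and 0.52 (SE 0.15) against E2A-/-. The remaining probe sets gave -0.22 with Lyl1-/- below all WT arrays (1445003_at) and 0.14 with overlap (1446301_at).

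The next 3 neighbours, farther along the chromosome, were each higher in Lyl1-/- and at the same level in E2A-/- and WT to within their SE. Rnaseh2a encodes the catalytic subunit of RNase H2, which removes ribonucleotides from DNA. Its probe set 1452725_a_at read 624, 530 and 437 in Lyl1-/-, against 460, 273 and 329 in E2A-/- and 329, 297 and 379 in WT. Lyl1-/- was above all WT arrays, by 0.70 (SE 0.23) in log2, and overlapped E2A-/- 1. E2A-/- against WT gave 0.09 (SE 0.23).

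Get3 encodes the ATPase that carries tail-anchored proteins to the endoplasmic reticulum. Its probe set 1418292_at read 238, 183 and 162 in Lyl1-/-, against 144, 110 and 131 in E2A-/- and 148, 111 and 145 in WT. All 3 Lyl1-/- arrays were above the 6 others, by 0.59 (SE 0.20) against WT and 0.59 (SE 0.17) against E2A-/-. Tnpo2 encodes a transportin, an import receptor of the nucleus. The probe set 1437283_at read 99.0, 104 and 139 in Lyl1-/-, against 89.1, 82.0 and 67.8 in E2A-/- and 85.1, 72.8 and 86.4 in WT. It too was above the 6 others in every Lyl1-/- array, by 0.51 (SE 0.18) against WT and 0.51 (SE 0.16) against E2A-/-. This probe set is dim: its E2A-/- and WT readings lay on both sides of the array medians (77.9 to 79.3). The 2 Tnpo2 probe sets that failed the filter read 66.8 to 85.2 over all arrays and carry little information on the gene. They differed by -0.02 and 0.08 in Lyl1-/- against WT.

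Dhps, the last of the 9, encodes deoxyhypusine synthase, the first enzyme of the pathway that modifies the translation factor eIF5A. Its probe set 1434003_a_at read 214, 220 and 216 in Lyl1-/-, against 307, 326 and 252 in E2A-/- and 255, 292 and 265 in WT. All 3 Lyl1-/- arrays were below the 6 others, by -0.35 (SE 0.12) against WT and -0.44 (SE 0.11) against E2A-/-. The other probe set, 1434004_at, overlapped in all genotypes with a difference of -0.01. Dhps overlaps Wdr83 on the opposite strand in RefSeq, and the Wdr83 probe set 1418732_s_at differed the other way, by 0.33 (limma adjusted p = 0.562).

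**Figure D2:**
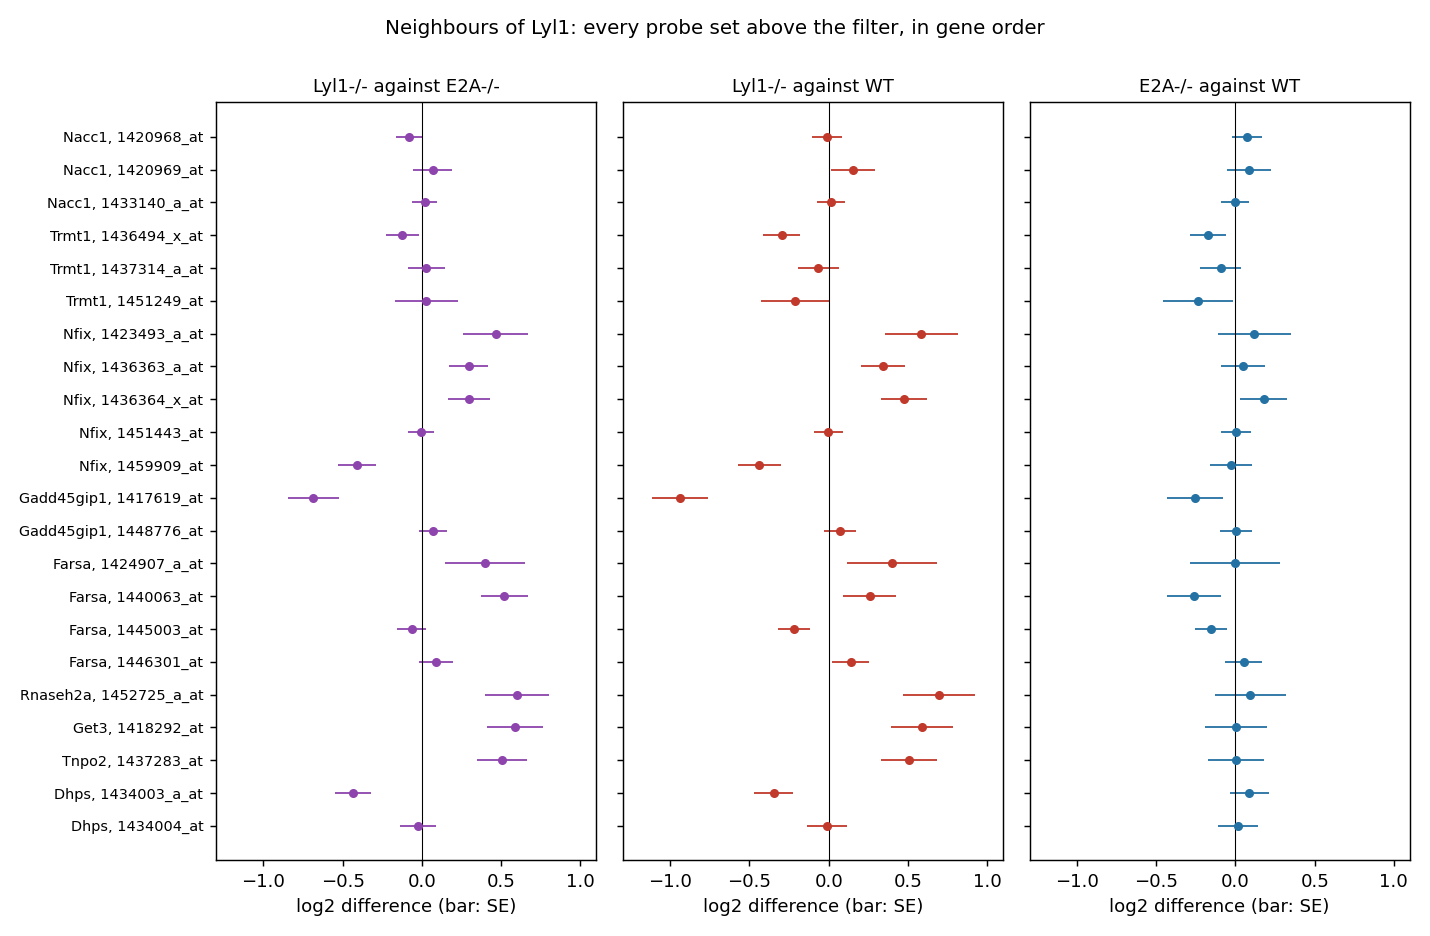
Log2 differences (points) with their SE (bars) for all 22 neighbouring probe sets above the filter, from the fit of 3 Lyl1-/-, 3 E2A-/- and 2 WT samples, in gene order from the top. In both Lyl1-/- panels points lie on both sides of 0 and reach down to -0.68 against E2A-/- and -0.94 against WT, whereas in E2A-/- against WT they stay between -0.26 and 0.18.

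Counted over the 22 probe sets, none passed the limma test of the main fit, adjusted over all 20387 probe sets, in any comparison. In Lyl1-/- against WT the count was 0 of 22 neighbouring probe sets against a background of 0.216% (44 of 20387, 14 higher and 30 lower). Of all tested probe sets, 1705 had an unadjusted p under 0.05 there. In Lyl1-/- against E2A-/- the same count was 0 against 0.0736% (15 of 20387), with 1573 of all at an unadjusted p under 0.05. In E2A-/- against WT the count was also 0, against 0.221% (45 of 20387), with 1645 of all at an unadjusted p under 0.05. With all 9 arrays as separate samples, Gadd45gip1 1417619_at was 1 of 149 calls in Lyl1-/- against WT, and with a replicate block added 1 of 88. Both fits count as separate samples the WT arrays that the main fit averages, so that call is given as a property of these settings only. Since the genes were chosen with these contrasts known, neither the counts nor that call can test them, and nothing is read from either.

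The sizes of the differences are described in the same way. The median absolute log2 difference of the 22 was 0.28 in Lyl1-/- against WT, 0.21 in Lyl1-/- against E2A-/- and 0.08 in E2A-/- against WT, beside 0.10, 0.09 and 0.10 over all tested probe sets. Differences over 0.5 in size numbered 5 of 22 (22.7%) in Lyl1-/- against WT, beside 3.18% of all. No common direction was seen: 12 of the 22 differences from WT were above 0, and their median was 0.04. All Lyl1-/- arrays were outside the range of the WT arrays for 12 of 22 probe sets (7 higher and 5 lower), beside 21.2% of all. For E2A-/- this held for 2 of 22, both of them lower, beside 17.6% of all. All Lyl1-/- arrays were outside the range of the 6 others for 7 of 22 (4 higher and 3 lower), beside 4.43% of all, and all E2A-/- arrays for 0 of 22, beside 3.6% of all.

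Among the genes interspersed with the 9, Prdx2 was the 1 gene past the threshold. Among the measured genes it lies between Rnaseh2a and Junb, and it encodes a peroxiredoxin that is abundant in red blood cells. Its probe set 1430979_a_at read 132, 93.5 and 132 on the Lyl1-/- arrays, against 476, 427 and 421 on the E2A-/- arrays and 367, 400.4 and 344 on the WT arrays. It fell by 1.68 (SE 0.16) on the log2 scale against WT (limma adjusted p = 0.00613), a 3.21-fold difference. Against E2A-/- it fell by 1.91 (SE 0.14) on the log2 scale (limma adjusted p = 0.00389). E2A-/- against WT gave 0.22 (limma adjusted p = 0.843). The call against WT was lost without WT 2 (-1.60, limma adjusted p = 0.0875) and with Xist, a transcript of female cells, as a covariate (-1.58, limma adjusted p = 0.0632). The difference against E2A-/- lost its call without E2A-/- 2 and 3 (-2.02, limma adjusted p = 0.109).

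The second Prdx2 probe set did not share the fall. The probe set 1418506_a_at was far brighter, at 2499, 2425 and 2474 in Lyl1-/-, against 2535, 1839 and 2303 in E2A-/- and 2597, 2235 and 2439 in WT. The genotypes overlapped, with a difference of 0.06 (SE 0.14) from WT (limma adjusted p = 0.974). Averaged over both probe sets, Prdx2 differed by -0.81 from WT (limma adjusted p = 0.0528). Of the mature erythroid transcripts 0 passed in limma in any comparison. The summed intensity of the 5 listed genes on the array was 405 to 478 in Lyl1-/-, against 780 to 1916 in E2A-/- and 563 to 582 in WT. These sums lie partly at the floor, as the arrays' medians were 77.9 to 79.3. Hba-a1 failed the filter, and in Lyl1-/- Alas2 and Ermap read 71.8 to 102. Car1 read 109 to 133 in Lyl1-/-, against 199 to 741 in E2A-/- and 131 to 196 in WT. The part of these transcripts in the Prdx2 result was not tested. Fewer cells of a type cannot be told apart from less RNA per cell in such samples.

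**Figure D3:**
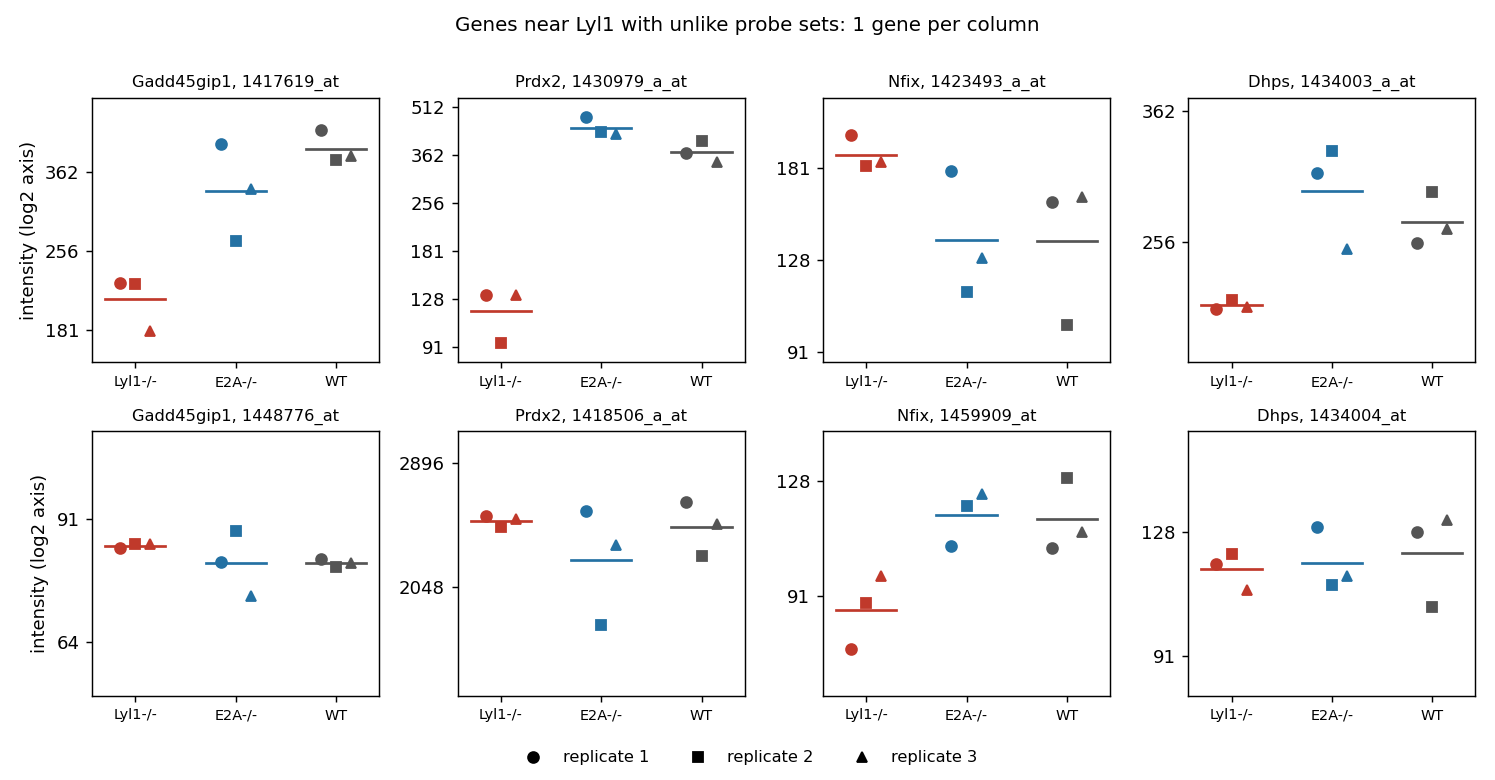
Intensity on a log2 axis of 2 probe sets each of Gadd45gip1, Prdx2, Nfix and Dhps (1 gene per column) on the 3 Lyl1-/-, 3 E2A-/- and 3 WT arrays, with lines at the geometric mean of the 3 arrays. In the upper row the Lyl1-/- arrays are apart from the 6 others. In the lower row they are not, except for Nfix, where they are apart in the other direction.

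Probe sets of 1 gene thus parted ways for Gadd45gip1, Nfix, Farsa, Dhps and Prdx2, each of which had probe sets with all Lyl1-/- arrays outside the range of the 6 others and probe sets without. What sets them apart was not tested. Outside the close neighbourhood, Fam32a, 79 measured genes before Lyl1, showed opposite signs within 1 gene, with -0.68 for 1423217_a_at (limma adjusted p = 0.193) and 0.51 for 1423216_a_at in Lyl1-/- against WT.

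The remaining genes among the 25 measured genes on each side of Lyl1 were tested as a set of single probe sets. They are 41 genes with 64 probe sets, of which 50 from 35 genes passed the filter. In Lyl1-/- against WT 1 of 50 passed and 4 had an unadjusted p under 0.05, and in Lyl1-/- against E2A-/- 1 passed and 7 did so. Both calls were Prdx2 1430979_a_at. In E2A-/- against WT 0 passed in limma and 3 had an unadjusted p under 0.05. All Lyl1-/- arrays stood outside the range of the 6 others for 3 of the 50 (6%), from Prdx2, Adgrl1 and D8Ertd738e, and differences over 0.5 in size from WT numbered 2 (4%).

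Of the 10 nearest measured genes on each side, 13 unlisted genes had a tested probe set, and 0 passed in limma. D8Ertd738e, 7 genes before Lyl1, came closest. Its probe set 1449724_s_at read 838, 777 and 681 in Lyl1-/-, against 445, 429 and 561 in E2A-/- and 564, 490 and 555 in WT. All Lyl1-/- arrays were above the 6 others, by 0.54 against WT (limma adjusted p = 0.314) and 0.68 against E2A-/- (limma adjusted p = 0.259), while its second probe set 1420074_at gave -0.04 against WT. Calr, which encodes the endoplasmic reticulum chaperone calreticulin, lies between Gadd45gip1 and Farsa and its 3 probe sets gave -0.04 to -0.02 in Lyl1-/- against WT. The immediate early gene Ier2 gave -0.20 (limma adjusted p = 0.924), the meiotic gene Syce2 -0.34 (limma adjusted p = 0.651), Gcdh of lysine breakdown -0.06, the lysosomal nuclease gene Dnase2a 0.09 and the kinase gene Mast1 0.19. Cc2d1a, Zswim4, Mri1, Cacna1a and Dand5 stayed between -0.09 and 0.15.

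Klf1, an erythroid transcription factor gene 8 genes after Lyl1, differed in the other knockout. It read 154, 94.0 and 113 in Lyl1-/-, against 257, 147 and 275 in E2A-/- and 120, 147 and 119 in WT. E2A-/- 1 and 3 were above all other arrays and E2A-/- 2 was within the WT range. Neither the 0.72 of E2A-/- against WT (limma adjusted p = 0.586) nor the -0.89 of Lyl1-/- against E2A-/- (limma adjusted p = 0.474) passed. The mature erythroid sums given for Prdx2 were also highest on E2A-/- 1 and 3, and their part in the Klf1 values was not tested.

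Along the whole of chromosome 8, the share of tested probe sets with a difference over 0.5 in size in Lyl1-/- against WT was 9.72% of 72 within 25 measured genes of Lyl1 (the listed 9 genes included), 7.43% of 175 between 26 and 100 genes away, 1.98% of 808 farther away and 3.17% of 19331 on the other chromosomes. In E2A-/- against WT the shares in the same order were 1.39%, 2.29%, 2.10% and 3.09%. Within the 25-gene window, all Lyl1-/- arrays were outside the 6 others for 8 of 36 probe sets after Lyl1 (22.2%) and for 2 of 36 before it (5.56%). Between 26 and 100 genes the sides were the other way round, with 12 of 94 before (12.8%) and 4 of 81 after (4.94%). These shares include the genes chosen with the differences known and carry no test. The listed genes gave 7 of the 8 probe sets after Lyl1. Without the listed genes, the share over 0.5 in size within 25 genes in Lyl1-/- against WT was 4% of 50.

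**Figure D4:**
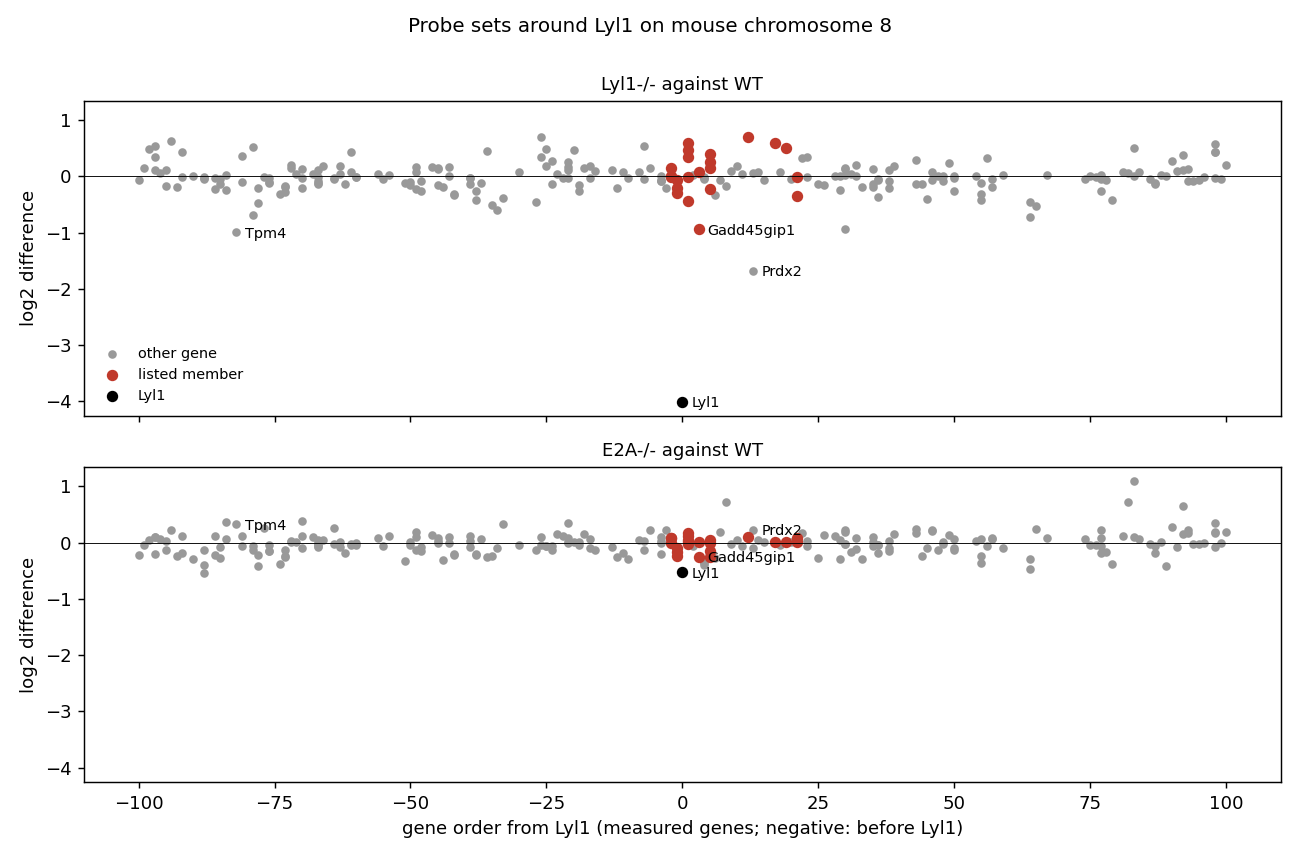
Log2 difference (y axis) of every tested probe set within 100 measured genes of Lyl1 against its gene's order from Lyl1 in measured genes (x axis). Lyl1-/- against WT is above and E2A-/- against WT below, red for the 9 listed neighbours, black for Lyl1 and grey for other genes. Lyl1 at -4.01 and Prdx2 at -1.68 are the lowest points of the upper panel, where the neighbours lie on both sides of 0.

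The calls on chromosome 8 were few. In Lyl1-/- against WT they were Lyl1 and Prdx2, 2 of 44 calls. In Lyl1-/- against E2A-/- they were 4 of 15: Lyl1, Prdx2, Tpm4 and Lpcat2. Tpm4, a tropomyosin gene 82 genes before Lyl1, read 128, 159 and 147 in Lyl1-/-, against 431, 320.2 and 338 in E2A-/- and 289, 299 and 261 in WT. It fell by 1.32 against E2A-/- (limma adjusted p = 0.0136), and against WT its difference was -0.996 (limma adjusted p = 0.0543). That call was lost, at a difference of similar size, without Lyl1-/- 1 (-1.24, limma adjusted p = 0.107), Lyl1-/- 2 (-1.39, limma adjusted p = 0.068) or E2A-/- 3 (-1.37, limma adjusted p = 0.0854), and with Xist as a covariate (-1.27, limma adjusted p = 0.0515). Lpcat2, which encodes a lysophospholipid acyltransferase and lies 65 genes after Lyl1, read 74.9, 68.9 and 71.1 in Lyl1-/-, against 136, 118 and 113 in E2A-/- and 113, 97.9 and 102 in WT. It fell by 0.77 against E2A-/- (limma adjusted p = 0.0488), with its Lyl1-/- readings below the array medians (77.9 to 79.3). That call was lost with Xist (limma adjusted p = 0.18) or the actin ratio (limma adjusted p = 0.0664) as a covariate. Another filter, no filter or median centring also ended it (limma adjusted p = 0.0541 to 0.0614). It held with 9 separate arrays, with the replicate block, with quantile normalization run again, with an intensity trend in eBayes and by highest probe set. Leaving out any single array but WT 1 ended the Lpcat2 call (limma adjusted p = 0.0663 to 0.315). The metallothionein gene Mt2, 82 genes after Lyl1, was the 1 call of E2A-/- against WT on the chromosome, at 0.72 (limma adjusted p = 0.0312). Leaving out the 9 listed genes, for which no p is given, the next by p in Lyl1-/- against WT after Tpm4 were Zfp330 (-0.60, limma adjusted p = 0.159), Tfdp1 (0.50) and Ssbp4 (0.53, limma adjusted p = 0.186 for both).

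The other targeted locus gave a second look at neighbours, in E2A-/- against WT. Around Tcf3, 46 of the 50 nearest measured genes had 68 tested probe sets, and 0 passed in limma, with 1 at an unadjusted p under 0.05. That was Mob3a at -0.35 (limma adjusted p = 0.577), followed by Pwwp3a at 0.30 (limma adjusted p = 0.736), Mknk2 at -0.19, Btbd2 at -0.18 and Cbarp at -0.19. Over all 20387 tested probe sets in this comparison, 45 passed in limma and 1645 had an unadjusted p under 0.05. All E2A-/- arrays were outside the range of the 6 others for 0 of the 68, beside 3.6% of all. Tcf3 itself had 3 probe sets. The brightest, 1426297_at, read 172, 193 and 121 in E2A-/- against 205, 164 and 195 in WT. These overlap, and the -0.19 between them had a limma adjusted p of 0.908. Near the array median, 1427764_a_at read 64.5, 67.9 and 74.4 in E2A-/- against 83.3, 68.4 and 79.8 in WT (-0.12, limma adjusted p = 0.902). The third, 1452542_x_at, failed the filter, with E2A-/- at 69.7, 65.3 and 65.9, below all 6 other arrays, against 73.7, 72.0 and 74.3 in WT. The sources used here do not say which part of Tcf3 the allele removes.

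The neighbours' partners elsewhere in the genome were examined through 9 lists of paralogs and of members of the same complex or pathway. Leaving out the 9 genes themselves, 38 probe sets of 20 genes were tested and 0 passed in any comparison in limma, with 5 at an unadjusted p under 0.05 in Lyl1-/- against WT, 3 in Lyl1-/- against E2A-/- and 1 in E2A-/- against WT. The smallest limma adjusted p in Lyl1-/- against WT, 0.169, belonged to Get4, which acts before Get3 in the delivery of tail-anchored proteins, at 0.54 for 1451700_a_at, while 1428528_at of the same gene gave -0.16. The co-chaperone Sgta gave 0.30, Bag6 0.02 and the receptor gene Get1 -0.07. Among the RNase H2 subunits, Rnaseh2c gave 0.46 (limma adjusted p = 0.511), 0.39 (limma adjusted p = 0.542) and 0.08 at its 3 probe sets and Rnaseh2b 0.11. The largest of these differences, 0.94 for Eif5a at 1437859_x_at, had a limma adjusted p of 0.438, and the other Eif5a probe set gave 0.13. Dohh, which completes hypusine, gave 0.17 and -0.02, and Eif5a2 0.08.

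Paralogs of the other neighbours are given by their values. Nfia gave -0.21 and the 3 tested probe sets of Nfic -0.24 to 0.14 in Lyl1-/- against WT, and no probe set of Nfib passed the filter. Nacc2 gave -0.08 and 0.04. The Trmt1 paralog Trmt1l gave 0.01 and -0.01. Farsb, which encodes the beta subunit that pairs with Farsa, spread from -0.17 to 0.39 over 4 probe sets, and the mitochondrial Fars2 gave 0.22 and 0.01. The transportins Tnpo1 and Tnpo3 ran from -0.28 to 0.24. Gadd45a, Gadd45b and Gadd45g ran from -0.10 to 0.34.

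For the nearest neighbour on each side, the probe sets of other genes with the most similar profile over the 8 samples were listed as a description. The Trmt1 probe set 1436494_x_at was most like Tnrc18 (Pearson r = 0.94), Ndfip2 (r = 0.93) and Sox4 (r = 0.93), while its own gene's other probe sets reached r = 0.34 and 0.45. The Nfix probe set 1436363_a_at was most like Fndc8 (r = 0.98), Ipcef1 (r = 0.97) and Cep295nl (r = 0.96). Of the other Nfix probe sets, 1436364_x_at reached r = 0.95 and 1459909_at -0.69. These are the highest of 20387 values over 8 samples that share genotypes, and no gene next to Lyl1 was among them.

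Properties of the arrays touch several of these values. The ratio of 3-prime to 5-prime beta-actin signal was 10.1 on E2A-/- 2 and 10.6 on WT 2, against 2.85 to 4.23 on the others, and Farsa 1424907_a_at, Rnaseh2a, Get3 and Nfix 1423493_a_at were lowest within E2A-/- and within WT on those 2 arrays. Without them, the differences from WT were 0.14 for Farsa, 0.39 for Get3, 0.24 for Nfix, 0.57 for Rnaseh2a, 0.39 for Tnpo2, 0.04 for Nacc1 1420969_at, -0.26 for Dhps and -0.99 for Gadd45gip1. Xist was high on Lyl1-/- 1 and 2 and E2A-/- 2 and low on the other 6. With Xist as a covariate, the differences were 0.55 for Farsa, 0.57 for Get3, 0.70 for Nfix, 0.74 for Rnaseh2a, 0.64 for Tnpo2, -0.88 for Gadd45gip1 and -0.43 for Dhps. Farsa 1440063_at moved to 0.05.

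Of the 3 genes of the sort gate, Flt3 and Kit were present, and Ly6a, which encodes SCA-1, had no single-gene probe set. Flt3, which encodes CD135, read 672 to 1136 in Lyl1-/-, against 863 to 1217 in E2A-/- and 1052 to 1302 in WT, and Kit, which encodes CD117, read 314 to 397 in Lyl1-/-, against 327 to 493 in E2A-/- and 465 to 508 in WT. The 3 tested probe sets of these 2 genes had a median difference of -0.40 in Lyl1-/- against WT, and 0 passed in limma. At the Kit probe set given, every Lyl1-/- array lay below all WT arrays. Of 7 lineage genes listed, 4 had a single-gene probe set, and 0 of their 4 tested probe sets passed in limma in any comparison. Mature granulocyte transcripts summed to 2916, 2431 and 1365 in Lyl1-/-, against 1228, 17204 and 19418 in E2A-/- and 1396 to 1575 in WT. Rnaseh2a and Get3 had the same order over the Lyl1-/- arrays as this sum, highest on Lyl1-/- 1. Over the E2A-/- arrays they did not: both genes were highest on E2A-/- 1, where the sum was lowest. The part of this sum in their values was not tested.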

How the data were processed

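What was deposited is an intensity for each probe set on each array, linear in scale. RMA and the oligo package are named per the submitters' processing notes, without version, parameter or background step. The lowest deposited intensity of an array was 42.1 to 45.1, so differences of dim probe sets may be understated, which was not tested. The fit had been planned for log2 values, and log2 of the intensities was taken without a pseudocount.

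Groups came from the sample titles, which call the samples biological replicates. GEO's platform annotation gave 1 gene for 34945 of 45101 probe sets, several for 932 and none for 9160, and 64 controls were left out. A single-gene probe set was tested if it exceeded the median of at least 3 arrays (20387 did). The RefSeq gene table (GRCm38.p6) held the Entrez identifier of 34741 single-gene probe sets and served for names and gene order only. Distance from Lyl1 counts genes that have a single-gene probe set. Promoters were found for 6 of the 9 genes.

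Between WT 1 and WT 3 the robust spread of the log2 difference was 0.0717 in dim and 0.0827 in bright probe sets (ratio 1.15, other pairs 2.15 to 4.21), and their mean was used as 1 sample. Genotype means of the 8 samples were fitted in R 4.3.3 with limma 3.58.1 (lmFit, eBayes), which left 5 residual degrees of freedom, after a test of the steps on simulated data. Adjusted p-values are Benjamini-Hochberg values over all tested probe sets, with a threshold of 0.05. The number of arrays limits the precision.

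The 9 genes and the lists were chosen with earlier results of these data known. Named genes were these 9, Lyl1 and Tcf3, tested genes among the 10 nearest on each side of Lyl1, up to 5 further genes by smallest p in the windows of 25 genes around Lyl1 and Tcf3, every call there, up to 5 by smallest p on the rest of chromosome 8, tested members of the family lists and, for the nearest neighbours, the 3 most similar probe sets. Lpcat2, Mt2 and the second Fam32a probe set were named after their values were seen. Alternatives changed the filter, the scaling, the joining of a gene's probe sets, covariates, the window and the samples. Replicate numbers were not used to pair samples in the main fit. Deviations of same-numbered arrays from their group means correlated between -0.14 and 0.25. Arrays of unlike number were not set beside them, so these values cannot exclude pairing.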

Additional observations from a re-analysis of the deposited data

How the results depend on the processing

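Lyl1 stayed lower in Lyl1-/- than in WT under every alternative run. The 1 call among other genes within 25 measured genes in Lyl1-/- against WT became 0 with Xist as a covariate, when a gene was taken by its highest probe set or by its probe sets' mean, without WT 2 and E2A-/- 2 (chosen after seeing the data) and among the 10 nearest genes. With any array left out it ran from 0 to 1, being 0 without WT 2. In Lyl1-/- against E2A-/- the 1 call became 0 with the highest probe set of a gene, without E2A-/- 2 and 3 (chosen after seeing the data) and among the 10 nearest genes, and 3 among the 100 nearest, and it stayed 1 with any single array left out. In E2A-/- against WT the count was 0, and 1 among the 100 nearest. Around Tcf3 it was 0 throughout. Over all probe sets, the 44, 15 and 45 calls (Lyl1-/- against WT, Lyl1-/- against E2A-/- and E2A-/- against WT, in this order throughout) were 149, 22 and 154 with 9 separate arrays, 12, 9 and 26 with Xist, 22, 11 and 32 with the actin ratio, 23, 14 and 27 by highest probe set, 18, 15 and 18 by probe set mean, 33, 12 and 14 with only the 2 groups compared, 37, 11 and 32 without a filter, 24, 12 and 21 with WT 2 as the sole WT array, 33, 4 and 11 without E2A-/- 2 and 3, and 12, 6 and 15 without WT 2 and E2A-/- 2. With any array left out they ran from 12 to 63, 4 to 26 and 15 to 54. The replicate block, which treats same-numbered arrays as matched, gave 88, 16 and 94 calls with 9 arrays. With it the counts near Lyl1 were 1, 1 and 0 and that near Tcf3 was 0. Of 498 recomputed differences of the 9 genes from WT in Lyl1-/-, 469 moved by less than 1 SD and 19 changed sign. Where 1 sample of a genotype remains, it is assumed to vary like the other groups, and fewer samples alone can end a call.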
